A study of Mus musculus with 18 samples.

Results

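Primary murine renal proximal tubulo-interstitial epithelial cells (RPTEC) were compared after 6 h with TWEAK and after 6 h with vehicle. The comparison took all 3 samples labelled TWEAK and all 3 labelled vehicle at that time, 6 of the 18 RNASeq samples of the series, and covered the 15521 of 36528 listed genes that were counted more than 10 times in at least 4 of the 18 samples. The 3 TWEAK samples had received recombinant mouse TWEAK at 100 ng/mL, and the 3 vehicle samples DMSO. All 6 came from C57BL/6 cells bought from ScienCell, and the cultures carried no genetic change. The study pairs TWEAK with DMSO in its qRT-PCR of the same treatments, and the labels of the RNASeq samples do not spell this out. The other 12 samples were the vehicle and TWEAK groups at 24 h and the groups with TWEAK and 3 μM NIK SMI1 at both times. They served only for the gene filter, the normalization, the estimate of the spread and the comparison with 24 h. The labels name no separate animals or lots behind the 3 samples of a group, so that p-values measure the spread between these samples, which may be technical.

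TWEAK (Tnfsf12) is a cytokine of the TNF superfamily that acts through a single small receptor, Fn14 (Tnfrsf12a), which is found on epithelial, endothelial and mesenchymal cells and is known for its rise in injured kidney. Fn14 has no kinase activity and signals through TRAF adaptors and the cIAP ubiquitin ligases. Recruitment of these proteins activates canonical NF-κB, in which IKKβ marks IκB proteins for degradation and frees Rela and Nfkb1 dimers. It also stabilises NF-κB-inducing kinase (NIK, Map3k14), which through IKKα drives the processing of the Nfkb2 product p100 to p52 and the nuclear entry of p52 with Relb, the non-canonical pathway. In the renal tubule, TWEAK is best known as an inducer of chemokines and adhesion molecules.

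Levels are given in CPM, the reads of a gene scaled to the effective library size of its sample, and as mean ± SD over the 3 samples of a group where no single values are listed. Fold changes are on the log2 scale, TWEAK against vehicle, with the standard error (SE) of edgeR's quasi-likelihood test. Adjusted p-values are Benjamini-Hochberg values from that test over the 15521 genes, and a gene was called raised or lowered when its adjusted p-value was under 0.05. TWEAK inducible and TWEAK repressed genes had in addition a change of more than 2-fold. With 3 samples on each side, the smallest two-sided p of an exact permutation test is 0.1, and it was therefore not used for single genes.

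Between 30863467 and 51956444 reads were counted on genes in each of the 6 samples, at which 3 reads correspond to 0.0577 to 0.0972 CPM. Vehicle sample 1 stood apart: the SD of its log2 deviations from the mean of the other samples of its group over 7877 well expressed genes was 0.118, against 0.0608 to 0.0872 in the other 5 samples, and it carried more reads of Ahnak and fewer of Neat1 than the other vehicle samples. Without it, 1689 genes were raised and 1654 lowered, 253 of them inducible and 82 repressed. The samples carried the markers of an epithelium, with Krt18, Krt7, Epcam and Cdh1 at means of 4838, 4354, 737 and 1399.8 CPM in vehicle. Of the 30 transporters and brush border genes that mark the proximal tubule, 20 were under 1 CPM, and the defining transporters Slc34a1, Slc22a6 and Slc22a8 had no read in any of the 6 samples. The name RPTEC is used here as a label on that account. Among the markers of other cells, 15 of 18 for the loop, distal tubule and collecting duct were under 1 CPM, and those of leukocytes other than Cd14, Cd68 and Csf1r summed to 0.245 to 0.572 CPM. With these genes included, the leukocyte markers summed to 58.3 to 62.7 CPM in vehicle. Markers of fibroblasts summed to 7325.3 to 9351.5 CPM in vehicle, and to 34.4 to 37.3 CPM without Fn1. Those of podocytes summed to 933 to 975 CPM in vehicle. In bulk RNA, fewer cells of a type and less RNA per cell cannot be told apart.

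Some genes that rose carry the letters of the κB consensus, the sequence that NF-κB dimers recognise, close to their starts. Those shown here were picked among raised genes that hold a match. They encode brakes of the pathway itself (Nfkbia, Nfkbie, Tnip3), the precursor of the non-canonical subunit (Nfkb2) and chemokines (Ccl9, Cxcl10), all of which were raised at 6 h. Other raised brakes and chemokines are not shown, so the lines do not give the share of such genes with a match. For Nfkb2, a start with a match was taken. Each line gives the 250 bases before the start from RefSeq (GRCm38.p6), 5′ to 3′ on the strand of the gene, with matches to the κB consensus, searched on both strands, in capitals. The stretches are chr12:55492648-55492897 (minus strand) for Nfkbia, chr17:45555450-45555699 (plus) for Nfkbie, chr19:46304487-46304736 (plus) for Nfkb2 at 1 of the 3 starts listed for it, chr6:65590148-65590397 (plus) for Tnip3, chr11:83578637-83578886 (minus) for Ccl9 and chr5:92348890-92349139 (minus) for Cxcl10.
Nfkbia: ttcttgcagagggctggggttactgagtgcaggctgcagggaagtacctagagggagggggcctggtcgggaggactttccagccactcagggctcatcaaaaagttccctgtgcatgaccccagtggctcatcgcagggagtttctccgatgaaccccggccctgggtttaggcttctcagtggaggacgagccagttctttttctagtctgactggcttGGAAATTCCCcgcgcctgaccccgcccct
Nfkbie: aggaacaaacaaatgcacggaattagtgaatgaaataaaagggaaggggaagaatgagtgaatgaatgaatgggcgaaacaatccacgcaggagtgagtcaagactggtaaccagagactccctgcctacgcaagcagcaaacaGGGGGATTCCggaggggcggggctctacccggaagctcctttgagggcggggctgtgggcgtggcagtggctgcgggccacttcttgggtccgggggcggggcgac
Nfkb2: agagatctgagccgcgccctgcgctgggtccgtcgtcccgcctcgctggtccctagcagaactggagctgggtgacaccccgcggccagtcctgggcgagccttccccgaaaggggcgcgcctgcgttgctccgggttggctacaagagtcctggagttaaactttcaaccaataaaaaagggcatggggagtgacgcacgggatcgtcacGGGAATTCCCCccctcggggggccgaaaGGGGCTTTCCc
Tnip3: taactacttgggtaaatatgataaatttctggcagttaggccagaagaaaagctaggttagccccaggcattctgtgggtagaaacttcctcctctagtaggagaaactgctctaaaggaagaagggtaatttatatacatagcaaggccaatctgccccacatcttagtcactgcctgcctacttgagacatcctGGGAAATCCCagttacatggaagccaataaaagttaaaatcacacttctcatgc
Ccl9: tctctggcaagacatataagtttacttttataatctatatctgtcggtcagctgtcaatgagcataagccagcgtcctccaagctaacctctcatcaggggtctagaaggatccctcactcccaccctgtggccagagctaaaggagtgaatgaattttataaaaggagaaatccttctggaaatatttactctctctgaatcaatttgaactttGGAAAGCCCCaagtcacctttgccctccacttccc
Cxcl10: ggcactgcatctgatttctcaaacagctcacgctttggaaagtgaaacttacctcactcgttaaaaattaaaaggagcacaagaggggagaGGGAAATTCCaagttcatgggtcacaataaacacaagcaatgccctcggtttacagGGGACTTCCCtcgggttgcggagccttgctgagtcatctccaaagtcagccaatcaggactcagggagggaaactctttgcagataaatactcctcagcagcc
The match nearest to the start began 29 bases before it in Nfkbia, 106 in Nfkbie, 11 in Nfkb2, 54 in Tnip3, 35 in Ccl9 and 103 in Cxcl10. Nfkb2 held 3 matches, of which 1 pair overlaps, and Cxcl10 held 2. Over windows from 250 bases before to 50 after the start, 28 of the 196 inducible genes with a RefSeq promoter (14.3%) held a match, against 4 of 58 repressed genes (6.90%), 714 of 11228 tested genes (6.36%) and 5.14% of all 27025 promoters in the table. The AP-1 motif TGANTCA, on both strands, was found in 35 of the 196 inducible promoters (17.9%), in 7 of the 58 repressed ones (12.1%) and in 6.71% of the tested and 8.97% of all promoters. These are descriptions of the letters in the window and carry no test.

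TWEAK changed the expression of 3686 genes at 6 h, 23.7% of those tested. Of these, 1816 were raised (11.7% of tested genes) and 1870 lowered (12.0%). With library sizes alone as the scaling the counts were 1668 and 2083. The calls were uneven in size. More than 2-fold changes were seen in 271 raised genes (1.75% of tested) and 84 lowered genes (0.541%), changes of more than 4-fold in 74 raised genes and 1 lowered gene, and changes of more than 8-fold in 26 raised genes and in no lowered gene. Most calls were small, with 1317 raised and 1522 lowered genes moving by less than 1.5-fold. The median log2 fold change of the raised genes was 0.31 and that of the lowered genes −0.30, while over all tested genes it was −0.0034. The inducible and the repressed genes were both mostly weakly expressed in vehicle. The median level of the inducible genes was 0.605 CPM and that of the repressed genes 1.08 CPM, against 20.6 CPM over all tested genes. Under 1 CPM were 152 of the 271 inducible and 40 of the 84 repressed genes, beside 2403 of the 15521 tested genes. In 2 of the inducible genes no vehicle sample had a read, so the size of their rise is not set by the data. Protein-coding genes made up 223 of the inducible genes and long non-coding RNAs 34.

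**Figure D1:**
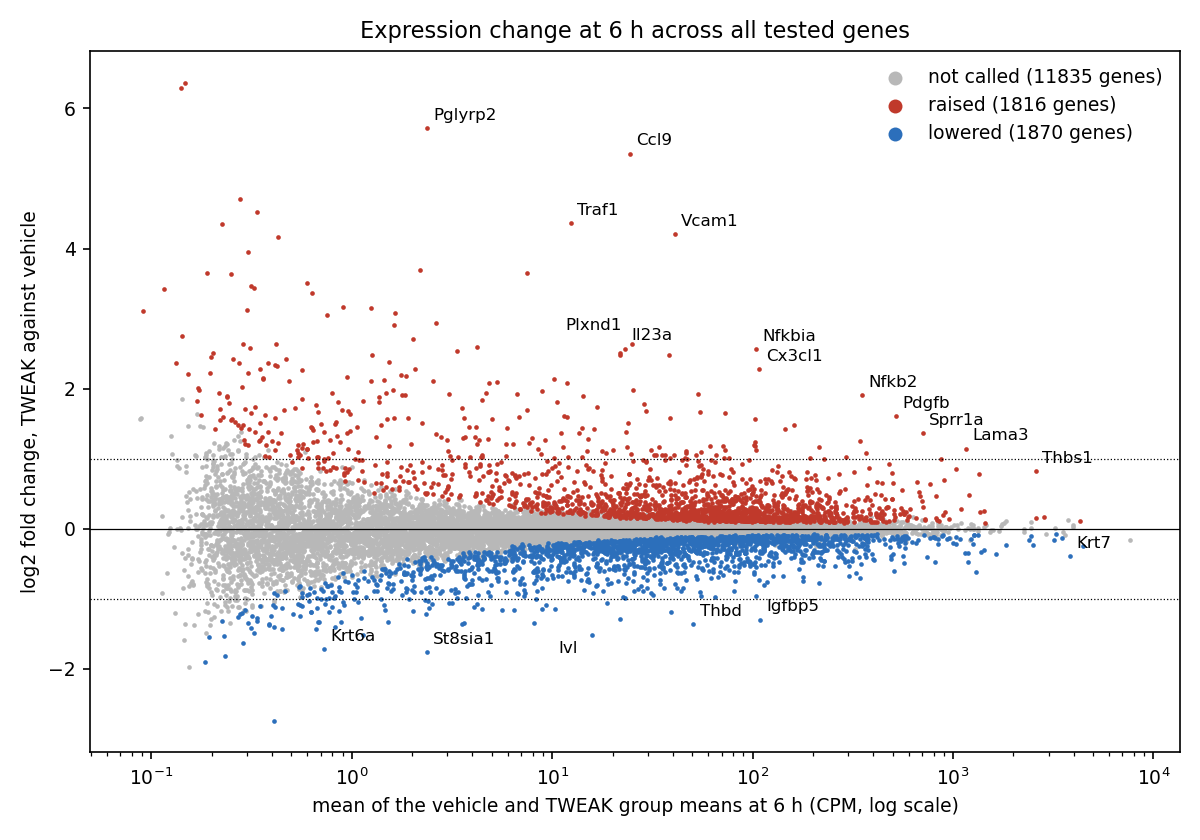
Log2 fold change of TWEAK against vehicle at 6 h (vertical axis) against the mean level in CPM (horizontal, log scale) for the 15521 tested genes, 1816 raised in red, 1870 lowered in blue and the rest in grey; dotted lines mark a 2-fold change. The large rises, such as Ccl9 at a log2 fold change of 5.35, start from low levels and reach much further than the falls.

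The genes of the TWEAK receptor and of the non-canonical pathway were raised as a set of components and not at the receptor. Of the 10 listed genes 7 were raised and none lowered, beside the 11.7% of all tested genes that were raised. The median log2 fold change of the list was 0.75. Fn14 itself (Tnfrsf12a) stood at 491, 513 and 486 CPM with vehicle and 465, 488 and 505 CPM with TWEAK, with overlapping groups (log2 fold change −0.030, SE 0.039, adjusted p = 0.652). Tnfsf12, the gene of TWEAK, was likewise not called (log2 fold change −0.021, SE 0.082, adjusted p = 0.907), nor was Chuk, which encodes IKKα (log2 fold change 0.011, SE 0.041, adjusted p = 0.895).

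Birc3 and Birc2 encode the cIAP ubiquitin ligases that hold NIK down together with Traf2 and Traf3, and all of these rose. Birc3 was counted at 6.58, 6.22 and 6.90 CPM with vehicle and 38.4, 35.9 and 35.9 CPM with TWEAK. The lowest TWEAK sample was far above the highest vehicle sample (log2 fold change 2.48, SE 0.075, adjusted p = 1.49e-19). Birc2 increased from 18.98 ± 1.23 to 37.6 ± 2.51 CPM (log2 fold change 0.98, SE 0.064, adjusted p = 2.02e-12). The adaptor genes Traf2 and Traf3 rose by log2 fold changes of 0.68 ± 0.043 and 0.53 ± 0.037 (SE). Map3k14, the NIK gene, measured 53.2, 54.02 and 58.6 CPM with vehicle and 96.4, 99.1 and 105 CPM with TWEAK. All TWEAK samples exceeded all vehicle samples (log2 fold change 0.86, SE 0.055, adjusted p = 1.13e-12). The 2 transcription factor genes of the pathway moved to different extents. Nfkb2 (GeneID 18034), whose promoter is shown above, rose 3.74-fold, from 145, 154 and 149 CPM to 559, 535 and 578 CPM (log2 fold change 1.90, SE 0.037, adjusted p = 1.23e-23), and Relb 1.77-fold, from 43.6, 43.5 and 42.4 CPM to 75.3, 74.95 and 78.5 CPM (log2 fold change 0.82, SE 0.045, adjusted p = 4.87e-14). Nfkb2 overlaps a non-coding gene on the reference, and because the library kit does not keep the strand, reads from the shared stretch cannot be told apart.

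Fewer of the canonical components were called. Among the 12 genes for canonical NF-κB subunits, the IKK complex and its upstream ubiquitin ligases, 4 were raised and none lowered. The raised share was 33.3%, beside 11.7% of all tested genes, and the median log2 fold change of the list was 0.066. The raised ones were the subunit genes Nfkb1 (0.77 ± 0.032), Rel (0.78 ± 0.15) and Rela (0.38 ± 0.031) and the kinase gene Ikbkb (0.30 ± 0.033; values are log2 fold changes ± SE). Nfkb1, which encodes p105 and p50, went from 152 ± 1.19 to 259 ± 3.10 CPM. The scaffold Ikbkg, the kinase Map3k7 and the TAB and LUBAC genes were not called, with log2 fold changes between −0.011 and 0.079.

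The inhibitors of the pathway were among the strongest responders. Nfkbia encodes IκBα, the best known NF-κB target and its first brake. It was measured at 30.3, 29.6 and 30.1 CPM with vehicle and 173, 169 and 189 CPM with TWEAK. No vehicle sample came near the TWEAK samples, and the rise was 5.90-fold (log2 fold change 2.56, SE 0.045, adjusted p = 1.34e-24). Nfkbie, for IκBε, increased as well, from 11.5, 12.2 and 11.3 CPM to 65.7, 61.9 and 66.8 CPM (log2 fold change 2.47, SE 0.065, adjusted p = 6.56e-21). Per length, Nfkbia reached 104 RPKM and Nfkbie 24.4 in the TWEAK samples. Nfkbib rose by a log2 fold change of 0.54 ± 0.062 (SE). Nfkbid was called as well, but from 2, 8 and 2 reads with vehicle and 11, 29 and 7 reads with TWEAK, and its log2 fold change moved to 1.29 without TWEAK sample 2 and 1.35 without vehicle sample 3, where it was not called, and to 2.87 without vehicle sample 2. The atypical members Bcl3 and Nfkbiz were not called, at log2 fold changes of 0.18 and 0.078.

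Of 15 further feedback genes of NF-κB signaling, 8 were raised (53.3%, beside 11.7% of tested genes) and none lowered (median log2 fold change 0.21). Traf1, an adaptor without a RING domain that binds Traf2 and the cIAPs, led them and increased 20.6-fold, at 1.64, 1.14 and 0.838 CPM with vehicle and 22.9, 23.7 and 24.2 CPM with TWEAK (log2 fold change 4.36, SE 0.11, adjusted p = 4.34e-21). Tnip3, which binds the A20 protein, was raised from 1.65 ± 0.206 to 5.48 ± 0.564 CPM (log2 fold change 1.72, SE 0.15, adjusted p = 9.46e-10). The gene of A20 itself, Tnfaip3, a ubiquitin-editing enzyme, was already high and gained less, from 345, 343 and 348 CPM to 539.9, 540.2 and 539 CPM (log2 fold change 0.64, SE 0.033, adjusted p = 1.60e-14). Its partner Tnip1 rose by 0.71 ± 0.037 (log2, SE). The deubiquitinases Cyld and Otud7b were not called.

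**Figure D2:**
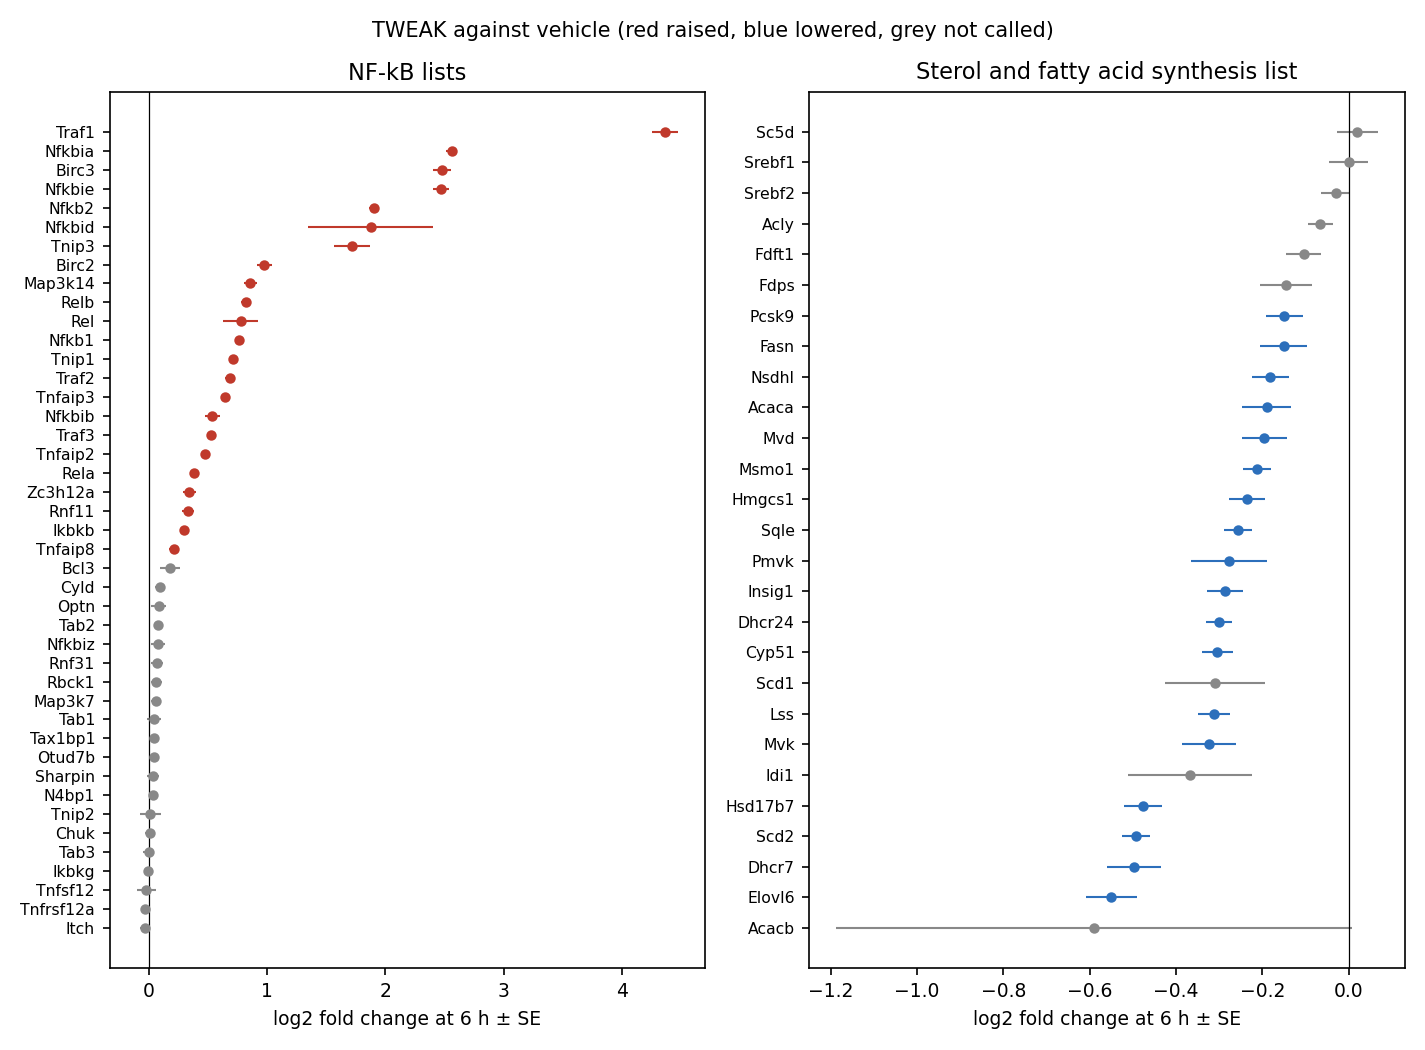
Log2 fold changes at 6 h ± SE (horizontal axis) of the genes in the 4 lists on NF-κB signaling (left) and of most genes in the list on sterol and fatty acid synthesis (right), red where raised, blue where lowered and grey where not called. All called NF-κB genes lie to the right of 0, led by Traf1 at 4.36, and the called sterol genes drawn all lie to the left, with Elovl6 at −0.55 the furthest among them.

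Most chemokine genes that passed the filter were raised. Of 19 CC chemokine genes, 13 did not pass the filter, 9 of which had no read in any of the 6 samples. Of the 6 tested, 4 rose (66.7%, beside 11.7% of all tested genes), and none fell. Genes with few reads in vehicle, such as Ccl2, could pass the filter through samples with TWEAK. The share raised among the tested genes is therefore partly set by the filter. Ccl9 (GeneID 20308), which attracts myeloid cells, stood at 1.14, 1.28 and 1.09 CPM with vehicle and 49.2, 44.1 and 50.1 CPM with TWEAK. The groups were far apart, and the rise was 40.9-fold (log2 fold change 5.35, SE 0.083, adjusted p = 1.60e-25). Ccl2, the monocyte attractant MCP-1, remained a weakly expressed gene. It had 3, 4 and 6 reads with vehicle and 36, 65 and 40 reads with TWEAK, and thus separated completely on few reads (log2 fold change 3.37, SE 0.38, adjusted p = 7.57e-08). Ccl5, the chemokine RANTES, was raised from 0.233 ± 0.0860 to 0.891 ± 0.202 CPM (log2 fold change 1.85, SE 0.37, adjusted p = 0.000316) and Ccl20, the ligand of CCR6, from 0.672 ± 0.101 to 1.15 ± 0.286 CPM (log2 fold change 0.76, SE 0.25, adjusted p = 0.0284). Ccl20 was not called in DESeq2, without the filter or in the 6 samples alone, nor without TWEAK sample 1 (log2 fold change 0.56) or vehicle sample 1 or 3 (0.70 each).

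Among CXC and CX3C chemokines, 7 of the 10 tested rose and 2 fell, while 6 of the 16 listed did not pass the filter. These shares were 70% and 20%, beside 11.7% and 12.0% of all tested genes. Cx3cl1, the membrane-bound chemokine fractalkine that tethers CX3CR1-bearing monocytes, was counted at 36.8, 36.4 and 37.9 CPM with vehicle and 177, 171 and 189 CPM with TWEAK. Every TWEAK sample lay above every vehicle sample (log2 fold change 2.27, SE 0.050, adjusted p = 1.92e-22). Cxcl16, the other transmembrane chemokine, rose from 198, 213 and 197 CPM to 479, 469 and 507 CPM (log2 fold change 1.26, SE 0.038, adjusted p = 1.49e-19). On the scale per length, Cxcl16 reached 179 RPKM with TWEAK, Cx3cl1 53.1, Ccl9 14.8 and Cxcl10 2.98, so the gene with the largest fold was not the one with the highest level. Cxcl10, a CXCR3 ligand, went from 0.470, 0.435 and 0.643 CPM to 3.30, 3.14 and 4.11 CPM (log2 fold change 2.71, SE 0.20, adjusted p = 2.44e-11). The neutrophil chemokines Cxcl1 and Cxcl2 gained little, with log2 fold changes of 0.37 ± 0.065 and 0.59 ± 0.11 (SE), and Cxcl3, at 0.348 ± 0.0442 to 0.782 ± 0.160 CPM, 1.16 ± 0.37. The call of Cxcl3 was lost without TWEAK sample 2 (0.97) or vehicle sample 1 (1.08) or 2 (1.15). Cxcl12, the ligand of CXCR4, rose by a log2 fold change of 0.50 ± 0.12. In the other direction, Ppbp, the platelet basic protein, fell from 222, 222 and 209.9 CPM to 161, 165 and 163 CPM (log2 fold change −0.42, SE 0.039, adjusted p = 1.97e-09), and Cxcl14 fell from 1.68 ± 0.173 to 0.973 ± 0.141 CPM (log2 fold change −0.79, SE 0.19, adjusted p = 0.00202).

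Interleukin and colony-stimulating factor genes split. Of 16 tested, 6 were raised and 4 lowered (median log2 fold change 0.15). Il23a, which encodes the p19 subunit of IL-23, was measured at 7.35, 6.33 and 6.34 CPM with vehicle and 40.002, 36.04 and 42.3 CPM with TWEAK. The rise was 5.95-fold without overlap (log2 fold change 2.57, SE 0.072, adjusted p = 2.80e-20). Its partner subunit gene Il12b had no read in any of the 6 samples. Csf2, the gene of GM-CSF, increased from 6.98, 8.59 and 7.58 CPM to 26.1, 24.6 and 26.6 CPM (log2 fold change 1.74, SE 0.080, adjusted p = 1.30e-15). Csf1, for M-CSF, rose by 0.60 ± 0.033, Lif by 0.45 ± 0.042, Csf3 by 0.29 ± 0.045 and Il34 by 0.14 ± 0.038 (log2 fold changes ± SE). The genes that fell included the alarmins Il33, from 8.78 ± 0.505 to 5.08 ± 0.242 CPM (log2 fold change −0.79, SE 0.13, adjusted p = 2.04e-05), and Il1a, from 1.76 ± 0.0732 to 0.926 ± 0.391 CPM (log2 fold change −0.89, SE 0.27, adjusted p = 0.0177). Il1a was not called without TWEAK sample 1 (−0.82) or 3 (−0.65) or vehicle sample 3 (−0.87), and Il34 not without vehicle sample 1 (0.10). Il24 and the IL-36 gene Il1f6 also fell, with log2 fold changes of −0.34 ± 0.061 and −0.52 ± 0.13. Il6 had 1 read over the 6 samples and was not tested.

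Receptors for cytokines were mostly raised. Of 25 tested genes 16 rose (64%), 2 fell (8%) and 7 were not called. Over all tested genes the shares were 11.7% and 12.0%, and the median log2 fold change of the list was 0.29. Osmr, the receptor subunit for oncostatin M, was at 1.81, 1.60 and 2.26 CPM with vehicle and 7.69, 6.55 and 8.001 CPM with TWEAK. The 3 TWEAK samples stood well clear (log2 fold change 1.94, SE 0.16, adjusted p = 3.11e-10). Its co-receptor Il6st (gp130) gained less, from 74.2 ± 8.13 to 121 ± 3.32 CPM (log2 fold change 0.71, SE 0.052, adjusted p = 2.02e-11). Both chains of the IL-18 receptor increased, Il18rap from 34.4, 35.3 and 35.6 CPM to 114, 106 and 110.3 CPM (log2 fold change 1.65, SE 0.047, adjusted p = 5.38e-20) and Il18r1 from 62.7 ± 2.37 to 143 ± 5.59 CPM (log2 fold change 1.19, SE 0.038, adjusted p = 3.75e-19). Il18 itself was at 0.183 ± 0.0556 to 0.0810 ± 0.0578 CPM and was not called (adjusted p = 0.237). Il5ra and Il15ra, subunits for IL-5 and IL-15, rose by log2 fold changes of 1.44 ± 0.084 and 1.69 ± 0.35. On the log2 scale, both chains of the interferon-γ receptor were raised, Ifngr2 by 1.01 ± 0.048 and Ifngr1 by 0.29 ± 0.033, as were those of the type I receptor, Ifnar1 by 0.28 ± 0.035 and Ifnar2 by 0.29 ± 0.055. The 2 lowered members, Il17rc and Il17re, are both receptors of the IL-17 family, at −0.36 ± 0.051 and −0.31 ± 0.057, whereas Il17ra was raised by 0.16 ± 0.048 (all log2 fold changes ± SE), a call that was lost without vehicle sample 2 (0.13).

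Within the TNF superfamily, 3 of 6 tested ligand genes were raised (50%, beside 11.7% of all tested genes) and none lowered. Of the 17 listed, 11 did not pass the filter. The raised ligand genes had few reads in vehicle and could pass it through samples with TWEAK, so their share is partly set by the filter. Tnfsf15 (TL1A, the ligand of DR3) had 5, 3 and 11 reads with vehicle and 40, 53 and 66 reads with TWEAK. Vehicle and TWEAK samples did not overlap (log2 fold change 3.04, SE 0.37, adjusted p = 2.20e-07). Ltb, for lymphotoxin β, and Tnf rose from still lower levels, Ltb from 0.179 ± 0.111 to 0.790 ± 0.317 CPM (log2 fold change 2.11, SE 0.42, adjusted p = 0.000341) and Tnf from 0.146 ± 0.0823 to 0.427 ± 0.214 CPM (log2 fold change 1.48, SE 0.46, adjusted p = 0.0185). Tnf was not called in DESeq2 or the 6 samples alone, nor without TWEAK sample 3 (1.07) or vehicle sample 2 (1.11). Of 18 tested receptor genes, 9 rose (50%) and 3 fell (16.7%), beside 11.7% and 12.0% of all tested genes. Ngfr, the low-affinity neurotrophin receptor p75, was counted at 4.36, 4.48 and 4.64 CPM with vehicle and 19.5, 17.4 and 20.7 CPM with TWEAK. It showed the largest change among the TNF receptor genes (log2 fold change 2.08, SE 0.080, adjusted p = 3.02e-17). Cd40 increased from 1.48 ± 0.0380 to 3.79 ± 0.0831 CPM (log2 fold change 1.35, SE 0.15, adjusted p = 3.31e-08), Tnfrsf11b, the decoy receptor osteoprotegerin, by 1.27 ± 0.17 and Relt by 1.21 ± 0.12 (log2, SE). Tnfrsf1b, the second TNF receptor, rose by 0.41 ± 0.070, while Tnfrsf1a and Ltbr, at −0.058 ± 0.035 and −0.062 ± 0.041, were not called (log2 ± SE). The decoy receptors Tnfrsf22 and Tnfrsf23 and the death receptor Tnfrsf21 were the lowered members, with log2 fold changes between −0.35 and −0.21.

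Adhesion molecules for leukocytes rose in 6 of 8 tested genes, and 1 fell. The raised share was 75%, beside 11.7% of all tested genes, and the lowered share 12.5%, near the 12.0% of all. Vcam1 (GeneID 22329), the ligand of the integrin VLA-4, was measured at 4.13, 4.05 and 4.31 CPM with vehicle and 82.6, 72.3 and 77.2 CPM with TWEAK. The increase was 18.5-fold (log2 fold change 4.21, SE 0.076, adjusted p = 2.42e-24). Icam1, the ligand of LFA-1, went from 1.17, 1.28 and 1.13 CPM to 7.39, 7.13 and 7.15 CPM (log2 fold change 2.60, SE 0.16, adjusted p = 5.59e-13). Per length, Vcam1 reached 21.2 RPKM with TWEAK and Icam1 2.65. Cd47, the signal that restrains phagocytosis, rose from 133 ± 6.13 to 297 ± 8.51 CPM (log2 fold change 1.16, SE 0.038, adjusted p = 6.94e-19), and the hyaluronan receptor Cd44 from 688 ± 20.96 to 1111 ± 23.6 CPM (log2 fold change 0.69, SE 0.034, adjusted p = 5.41e-15). Icam4 was also called, on few reads, with a log2 fold change of 3.12 that ranged from 2.57 to 5.12 over the alternative settings, highest without vehicle sample 2. The junctional molecule F11r rose and Jam2 fell, with log2 fold changes of 0.31 ± 0.029 and −0.42 ± 0.057 (SE). The endothelial selectins Sele and Selp had too few reads to be tested.

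Matrix proteases and their inhibitors showed both directions, with a median log2 fold change of −0.047. Of 26 tested genes 7 were raised (26.9%) and 6 lowered (23.1%), beside 11.7% and 12.0% of all tested genes. The raised ones included Mmp9, gelatinase B, at 3.69, 4.59 and 3.20 CPM with vehicle and 16.6, 15.8 and 17.5 CPM with TWEAK. Its groups did not overlap (log2 fold change 2.13, SE 0.091, adjusted p = 2.77e-16). Mmp10 rose from 0.449 ± 0.0688 to 1.47 ± 0.177 CPM (log2 fold change 1.68, SE 0.28, adjusted p = 3.49e-05), the aggrecanase Adamts9 by 1.29 ± 0.15, and Adam8 by 0.71 ± 0.040 (log2 ± SE). Adam17, the sheddase of TNF and of several receptors, gained 0.29 ± 0.036 (log2 ± SE). The membrane-type protease Mmp15 fell from 361 ± 5.90 to 263 ± 7.34 CPM (log2 fold change −0.46, SE 0.036, adjusted p = 5.86e-11), and Mmp28 and Timp3 fell with log2 fold changes of −0.52 ± 0.13 and −0.43 ± 0.15. Timp3 was not called in the 6 samples alone, nor without TWEAK sample 1 or vehicle sample 1 (−0.29 each).

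Genes of antigen presentation on MHC class I moved one way among those called. Of 18 tested, 11 were raised (61.1%, beside 11.7% of all tested genes) and none lowered, with a median log2 fold change of 0.35. Between 8 and 11 were raised in the alternative settings. The calls of B2m, Psme1, H2-Q4 and Tap2 were each lost in some of them. The heavy chain genes H2-K1 and H2-D1 rose from 77.4 ± 5.70 to 113 ± 1.74 CPM (log2 fold change 0.55, SE 0.049, adjusted p = 9.34e-10) and from 92.5 ± 1.86 to 126 ± 3.11 CPM (log2 fold change 0.45, SE 0.039, adjusted p = 6.37e-10). Tapbp, which encodes the loading chaperone tapasin, rose from 120.3 ± 3.38 to 174 ± 2.93 CPM and its relative Tapbpl from 12.04 ± 0.706 to 25.3 ± 1.78 CPM, by 0.53 ± 0.035 and 1.07 ± 0.068 (log2 ± SE). Of the immunoproteasome, Psmb10 was raised by 0.58 ± 0.059 on the log2 scale, whereas Psmb8 and Psmb9 were under 1 CPM and were not called. Tap1, the peptide transporter subunit, had a log2 fold change of 0.054 ± 0.065 and was not called. Class I heavy chain genes are near copies of each other, and only uniquely aligned reads were counted, which leaves their single values uncertain.

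Interferon-stimulated genes did not follow one direction. Of 31 tested, 9 were raised, 6 lowered and 16 not called, and the median was 0.087. Parp14, an ADP-ribosyltransferase, rose from 13.9, 12.9 and 12.3 CPM to 35.3, 32.3 and 33.7 CPM (log2 fold change 1.38, SE 0.059, adjusted p = 2.83e-16), together with Parp9 and Dtx3l, which form a complex, by 0.71 ± 0.062 and 0.63 ± 0.068 (log2 ± SE). Ddx58, which encodes the RNA sensor RIG-I, increased from 30.6 ± 0.528 to 61.3 ± 2.25 CPM (log2 fold change 1.002, SE 0.058, adjusted p = 1.36e-13). The classical targets Ifit2 and Ifit3 fell, with log2 fold changes of −0.40 ± 0.093 and −0.91 ± 0.29, as did Oasl1 (−0.79 ± 0.22), while Isg15 and Ifit1 were under 1 CPM and not called. The calls of Ifit3 and Oasl1 depended on single samples, Ifit3 on TWEAK sample 1 or 3 or vehicle sample 1 or 2 (−0.87 to −0.76 without them) and Oasl1 on TWEAK sample 1 (−0.65). The lowered count of the list was 3 without TWEAK sample 1. Of 22 interferon regulatory factors, STATs and SOCS genes, 11 rose (50%) and 2 fell (9.09%). The lowered share was near the 12.0% of all tested genes. Irf5 had the largest rise, from 0.570, 0.679 and 0.565 CPM to 2.50, 1.98 and 1.92 CPM (log2 fold change 1.81, SE 0.23, adjusted p = 7.40e-07), and Irf1 gained 0.51 ± 0.048 (log2 ± SE). Socs1, which inhibits JAK kinases, was raised from 2.51 ± 0.216 to 6.10 ± 0.478 CPM (log2 fold change 1.27, SE 0.13, adjusted p = 7.71e-09) and Socs3 from 17.4 ± 1.18 to 24.998 ± 2.09 CPM (log2 fold change 0.51, SE 0.063, adjusted p = 2.83e-07). Irf8 fell from 1.10 ± 0.341 to 0.496 ± 0.0478 CPM (log2 fold change −1.12, SE 0.26, adjusted p = 0.00204).

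Pattern recognition receptors were also divided, with 8 of 19 tested genes raised (42.1%) and 4 lowered (21.1%), beside 11.7% and 12.0% of all tested genes. Tlr2, the receptor of bacterial lipopeptides, rose from 2.03 ± 0.463 to 4.14 ± 0.734 CPM (log2 fold change 1.03, SE 0.16, adjusted p = 1.53e-05) and the muramyl peptide sensor Nod2 from 5.80, 5.33 and 4.85 CPM to 11.8, 11.8 and 11.2 CPM (log2 fold change 1.13, SE 0.10, adjusted p = 1.73e-09). Tlr3, the sensor of double-stranded RNA, fell from 85.9, 84.7 and 90.5 CPM to 54.7, 57.6 and 53.5 CPM (log2 fold change −0.66, SE 0.041, adjusted p = 9.56e-13). Tlr4 and Tlr5 fell, with log2 fold changes of −0.42 ± 0.12 and −0.59 ± 0.12, although the samples of the groups overlapped for Tlr4, which was not called without vehicle sample 3 (−0.35). Irak3, a brake on these receptors, rose by 1.14 ± 0.23 (log2 ± SE). In the complement list, 1 of 11 tested genes was called: C3, the central component, went from 30.3, 30.6 and 33.6 CPM to 63.8, 59.6 and 65.1 CPM (log2 fold change 0.99, SE 0.064, adjusted p = 1.29e-12), and 15 of the 26 listed did not pass the filter. The raised share of this list was 9.09%, near the 11.7% of all tested genes.

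Growth factor families held changes in both directions. Of 22 TGF-β family genes, 7 rose (31.8%) and 9 fell (40.9%), beside 11.7% and 12.0% of all tested genes. Tgfb2 increased from 3.69, 3.13 and 3.92 CPM to 15.1, 13.3 and 14.1 CPM (log2 fold change 1.97, SE 0.12, adjusted p = 4.68e-13), Bmp2 from 0.230 ± 0.0887 to 0.808 ± 0.0409 CPM (log2 fold change 1.72, SE 0.34, adjusted p = 0.000285) and Inhba, the activin A subunit, from 124 ± 11.9 to 203 ± 2.66 CPM (log2 fold change 0.71, SE 0.055, adjusted p = 5.96e-11). Bmp7, which is known for its role in nephron development and tubular maintenance, fell from 309, 305 and 299 CPM to 197, 219.7 and 216 CPM (log2 fold change −0.53, SE 0.036, adjusted p = 4.74e-12), and both type I and type II TGF-β receptors were lowered, at log2 fold changes of −0.37 ± 0.047 for Tgfbr1 and −0.33 ± 0.033 for Tgfbr2. Among 11 genes of the EGF family, 6 fell (54.5%) and 1 rose (9.09%), beside 12.0% and 11.7% of all tested genes. The ligands Areg and Ereg fell from 63.3 ± 2.27 to 43.5 ± 1.43 CPM and from 20.6 ± 0.498 to 13.6 ± 0.570 CPM (log2 fold changes −0.54 ± 0.052 and −0.60 ± 0.077), and the ligand Btc and the receptor Erbb3 fell with log2 fold changes of −0.42 ± 0.066 and −0.30 ± 0.048. Nrg1 rose from 84.03 ± 3.08 to 134 ± 2.38 CPM (log2 fold change 0.68, SE 0.041, adjusted p = 3.68e-13). Wnt genes showed 4 raised and 4 lowered of 17 tested (23.5% each), beside 11.7% and 12.0% of all tested genes. Wnt10a rose from 121 ± 1.90 to 199.7 ± 6.53 CPM (log2 fold change 0.72, SE 0.048, adjusted p = 2.88e-12), and Wnt9a fell at a log2 fold change of −0.40 ± 0.038.

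Of 22 AP-1 and immediate early factors, 12 were raised (54.5%) and 5 lowered (22.7%), mostly by small amounts. Over all tested genes the shares were 11.7% and 12.0%. Jun gained 0.43 ± 0.048, Fosl2 0.53 ± 0.035, Maff 0.51 ± 0.047, Atf3 0.49 ± 0.054 and Myc 0.41 ± 0.034 (log2 fold changes ± SE). Fosb fell from 8.22, 8.07 and 7.25 CPM to 3.09, 4.04 and 3.18 CPM (log2 fold change −1.17, SE 0.12, adjusted p = 1.53e-08) and Egr3 fell as well (log2 fold change −0.85 ± 0.19). The phosphatases that switch off MAP kinases fell in 5 of 10 genes (50%) and rose in 2 (20%), beside 12.0% and 11.7% of all tested genes. Dusp1 went down from 94.4, 93.05 and 89.4 CPM to 57.9, 63.5 and 61.4 CPM (log2 fold change −0.60, SE 0.043, adjusted p = 1.60e-11) and Dusp6, which acts on ERK, from 337 ± 2.78 to 242 ± 1.65 CPM (log2 fold change −0.47, SE 0.027, adjusted p = 1.07e-13). Dusp2 was called at a log2 fold change of −1.16 but on few reads, at −2.004 without TWEAK sample 2 and −0.77 without TWEAK sample 3. It was not called in DESeq2, under either other filter, in the 6 samples alone, or without any single sample but TWEAK sample 2. In the apoptosis list, 10 of 30 were raised (33.3%) and 5 lowered (16.7%), beside 11.7% and 12.0% of all tested genes. Between 8 and 10 were raised in the alternative settings. The calls of Casp12, Fadd and Bbc3 were lost in some of them, that of Bbc3 also in DESeq2 (adjusted p = 0.0517). The raised genes included Pmaip1, for the BH3-only protein NOXA, by 0.42 ± 0.044 (log2 ± SE). The 5 lowered genes included the anti-apoptotic Bcl2, down from 120.3, 107 and 106 CPM to 80.2, 78.5 and 81.3 CPM (log2 fold change −0.47, SE 0.044, adjusted p = 2.00e-09), and Bcl2l1 (log2 fold change −0.31 ± 0.032). The lowered count was 2 without TWEAK sample 3 and 3 without TWEAK sample 2 or vehicle sample 3. The gene of the caspase-8 inhibitor, Cflar, was not called (log2 fold change 0.028 ± 0.046).

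The 20 genes with the largest folds, among those that reached 1 CPM with TWEAK and separated completely, held several that belong to none of these families. The largest was Pglyrp2 (GeneID 57757), an amidase that cleaves bacterial peptidoglycan. It had 4, 2 and 4 reads with vehicle and 174, 218 and 161 reads with TWEAK, which puts its level at 4.66 ± 0.401 CPM with TWEAK (log2 fold change 5.72, SE 0.26, adjusted p = 7.97e-16). Its relative Pglyrp3 rose as well, from 0.397 ± 0.133 to 2.85 ± 0.375 CPM (log2 fold change 2.90, SE 0.26, adjusted p = 1.31e-09). Calcb, which encodes the neuropeptide β-CGRP, was at 0.738, 1.30 and 1.19 CPM with vehicle and 14.1, 15.03 and 12.4 CPM with TWEAK. This was a 12.5-fold rise (log2 fold change 3.64, SE 0.16, adjusted p = 4.61e-16). Lgsn, the lens protein lengsin, went from 0.302, 0.462 and 0.195 CPM to 4.24, 3.76 and 4.16 CPM (log2 fold change 3.70, SE 0.24, adjusted p = 1.45e-12). Plxnd1, the semaphorin receptor plexin D1, stood at 7.05, 6.47 and 7.29 CPM with vehicle and 42.4, 41.96 and 45.3 CPM with TWEAK. The groups were well separated (log2 fold change 2.63, SE 0.059, adjusted p = 1.92e-22). Rgs4, which speeds the shut-off of G protein signals, rose from 0.628 ± 0.215 to 4.62 ± 0.479 CPM (log2 fold change 2.93, SE 0.21, adjusted p = 1.62e-11) and the small GTPase gene Gem from 0.100 ± 0.0598 to 1.09 ± 0.290 CPM (log2 fold change 3.50, SE 0.41, adjusted p = 1.22e-07). Fyb, an adaptor best known from T cells, rose by 2.53 ± 0.14, the GTPase exchange factor gene Dock10 by 3.16 ± 0.28, Krt16, a keratin of stressed epithelium, by 3.08 ± 0.22, and the non-coding gene Gm16685 by 3.16 ± 0.32 (log2 fold changes ± SE).

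**Figure D3:**
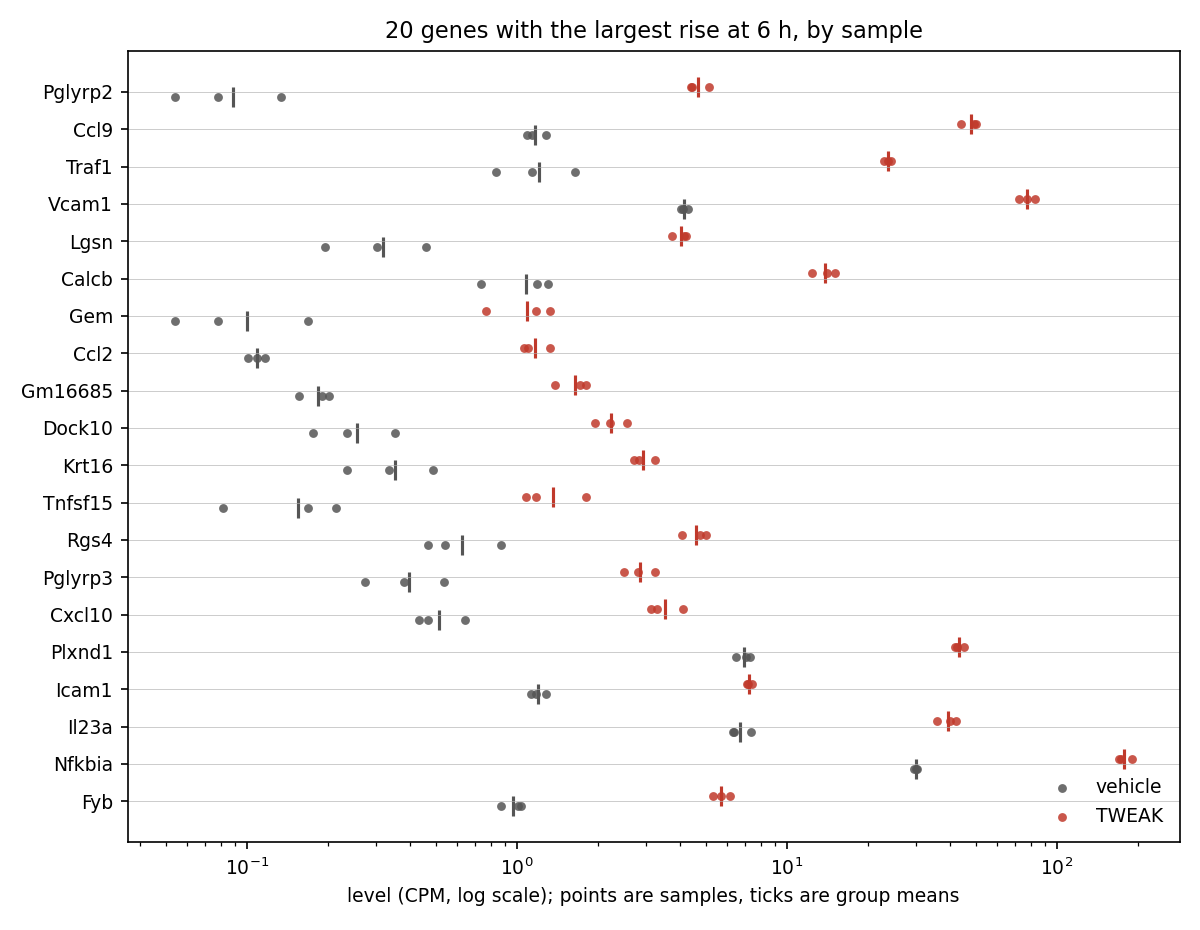
Level in CPM (horizontal axis, log scale) of the 20 genes with the largest rises in each of the 3 vehicle samples (grey points) and 3 TWEAK samples (red points), with ticks at the group means. No gene overlaps between the groups, which the choice of genes required, and most of the 20 lie near or under 1 CPM in vehicle, with Nfkbia at 30.01 CPM the highest there.

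In absolute terms, the gain in reads lay elsewhere. The 10 genes with the largest increase in mean CPM were well expressed already and rose by less than 4-fold. Thbs1, the matricellular protein thrombospondin 1, was counted at 1991, 1772 and 1834 CPM with vehicle and 3224, 3267 and 3415 CPM with TWEAK. It gained 1436 CPM (log2 fold change 0.82, SE 0.043, adjusted p = 2.07e-14). Lama3, a chain of laminin 332 in the basement membrane, rose from 764, 692 and 719 CPM to 1584, 1568 and 1643 CPM (log2 fold change 1.14, SE 0.039, adjusted p = 2.37e-18), and Sqstm1, which encodes the autophagy receptor p62, from 992 ± 12.6 to 1703 ± 68.6 CPM (log2 fold change 0.78, SE 0.034, adjusted p = 4.21e-16). Sprr1a, a precursor of the cornified envelope of squamous epithelia, increased from 386, 410.4 and 393 CPM to 984, 997 and 1082 CPM (log2 fold change 1.36, SE 0.041, adjusted p = 1.44e-19). Pdgfb, the platelet-derived growth factor chain, went from 254, 259 and 256 CPM to 773, 757 and 811 CPM (log2 fold change 1.61, SE 0.034, adjusted p = 5.49e-23). Epcam rose from 737 ± 32.96 to 1331 ± 57.8 CPM (log2 fold change 0.85, SE 0.033, adjusted p = 3.68e-17) and the integrin activator Fermt1 by 0.998 ± 0.030 (log2 ± SE). Cd44 and Nfkb2 were also among the 10.

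Lowered genes were smaller in their changes. The 20 largest decreases were taken among genes of at least 1 CPM in vehicle with complete separation. Of these, Ivl, involucrin, a precursor of the cornified envelope, stood at 22.1, 24.4 and 23.8 CPM with vehicle and 7.84, 8.84 and 7.89 CPM with TWEAK. The TWEAK samples lay far below (log2 fold change −1.51, SE 0.071, adjusted p = 2.16e-15). Krt6a fell from 1.12 ± 0.314 to 0.338 ± 0.0852 CPM (log2 fold change −1.72, SE 0.34, adjusted p = 0.000292) and the desmosomal cadherin Dsg3 from 1.69 ± 0.400 to 0.585 ± 0.171 CPM (log2 fold change −1.52, SE 0.28, adjusted p = 0.000106). Krt6a has close paralogs, and the split of reads among them is uncertain.

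Among the other large decreases, St8sia1, a sialyltransferase of ganglioside synthesis, had the lowest value. It was at 3.69, 3.70 and 3.57 CPM with vehicle and 0.884, 1.06 and 1.26 CPM with TWEAK, without overlap (log2 fold change −1.76, SE 0.15, adjusted p = 4.59e-10). Thbd, thrombomodulin, an anticoagulant receptor on the cell surface, fell from 76.002, 72.8 and 70.5 CPM to 25.9, 31.5 and 27.5 CPM (log2 fold change −1.36, SE 0.062, adjusted p = 1.16e-15). Igfbp5, which binds insulin-like growth factors, was measured at 157, 147 and 160.3 CPM with vehicle and 57.6, 68.4 and 62.1 CPM with TWEAK. Its level thus fell 2.46-fold (log2 fold change −1.30, SE 0.045, adjusted p = 2.67e-18). Id2, an inhibitor of basic helix-loop-helix factors, went from 30.7, 30.95 and 31.6 CPM to 13.6, 12.5 and 12.03 CPM (log2 fold change −1.29, SE 0.070, adjusted p = 4.25e-14) and Gcnt1, which forms core 2 branches of O-glycans, from 55.2, 53.4 and 54.7 CPM to 23.5, 25.2 and 22.8 CPM (log2 fold change −1.19, SE 0.056, adjusted p = 2.00e-15). The log2 fold change was −1.36 ± 0.12 (SE) for Csgalnact1, a starter of chondroitin sulfate chains, −1.34 ± 0.075 for the doublecortin-like kinase gene Dclk3, −1.35 ± 0.16 for the kinesin gene Kif26b, −1.34 ± 0.21 for Pdzrn3 and −1.40 ± 0.31 for the neuropeptide Y receptor gene Npy1r. The remaining members of this group, Ly6g2, Zan, Cldn2, Sgk2, Clca3a2, Gprin3 and Fosb, had log2 fold changes between −1.33 and −1.17. Sgk2 was no longer called without TWEAK sample 3 (log2 fold change −0.97, adjusted p = 0.0585).

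**Figure D4:**
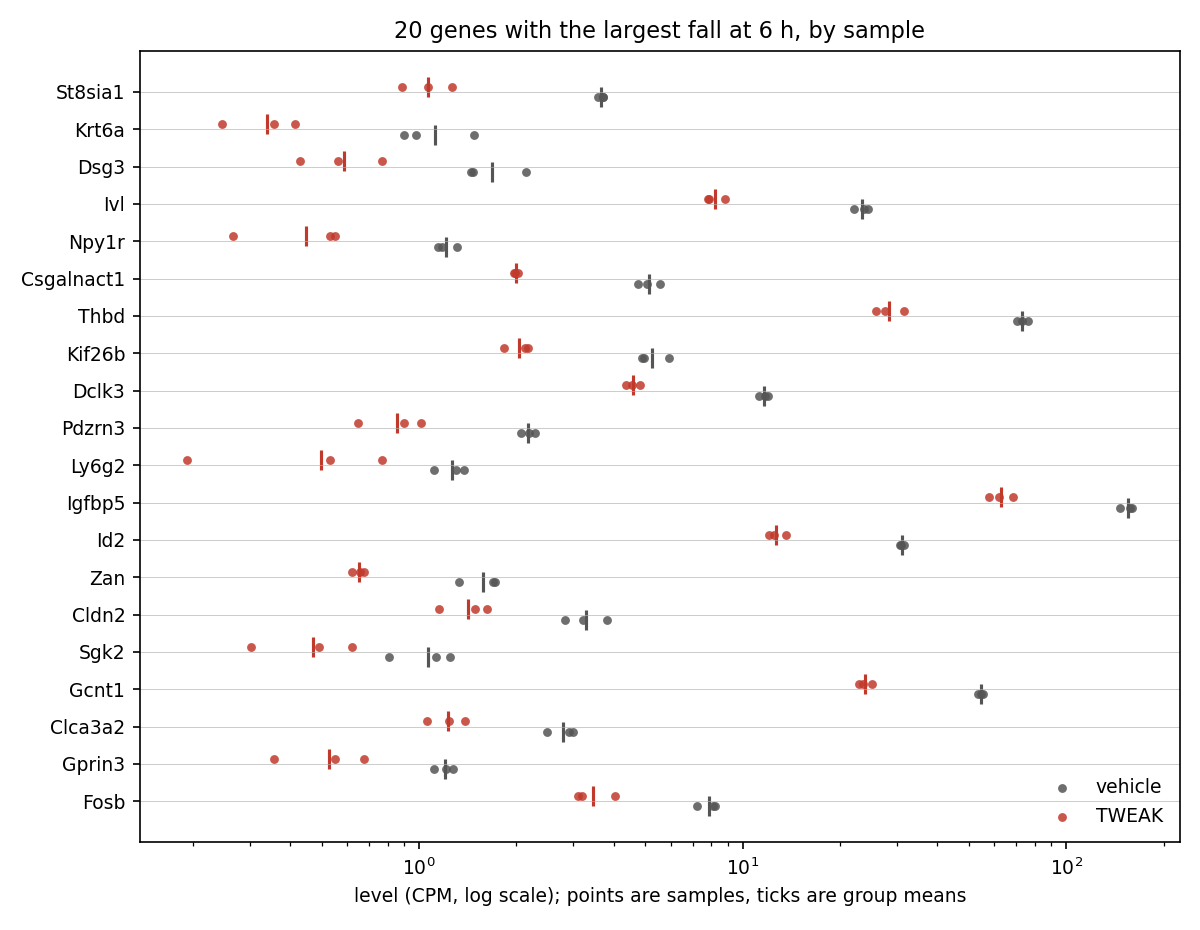
Level in CPM (horizontal axis, log scale) of the 20 genes with the largest decreases in each vehicle (grey points) and TWEAK (red points) sample, with ticks at the group means. The groups do not overlap, as the choice of genes required, and the distances are shorter than for the rises, with St8sia1 at a log2 fold change of −1.76 at the top and Fosb at −1.17 at the bottom.

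Among the 10 genes with the largest loss in mean CPM were 3 keratin genes of simple epithelium. Krt7 was counted at 4319, 4477 and 4266 CPM with vehicle and 3219, 3308 and 3385 CPM with TWEAK. It lost more CPM than any other lowered gene, with a modest change (log2 fold change −0.40, SE 0.032, adjusted p = 9.92e-11). Krt18 fell from 4838 ± 171 to 4068 ± 144 CPM (log2 fold change −0.25, SE 0.033, adjusted p = 8.80e-07) and Krt19 from 1534 ± 30.5 to 1218 ± 26.6 CPM (log2 fold change −0.33, SE 0.032, adjusted p = 5.25e-09). Of the 14 epithelial markers tested, 8 were lowered (57.1%) and 3 raised (21.4%), beside 12.0% and 11.7% of all tested genes. The raised ones included Epcam and Cdh1, and 1 was raised without TWEAK sample 3. Cdh1, at 0.083 ± 0.028 (log2 ± SE), was also not called without vehicle sample 2 or 3 or in the 6 samples alone. The nephron transcription factors Pax2 and Pax8 were both lowered, with log2 fold changes of −0.49 ± 0.059 and −0.43 ± 0.047 (SE). Ahnak, the scaffold gene that marked vehicle sample 1, was lowered at 2027, 1336 and 1374 CPM with vehicle and 973, 1022 and 1093 CPM with TWEAK. Its log2 fold change of −0.62 (SE 0.096, adjusted p = 1.28e-05) ranged from −0.72 to −0.40 over the alternatives, the smallest change being that without vehicle sample 1.

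Junction genes moved in both directions. Of 16 tested genes for claudins, other tight junction proteins and cadherins, 7 were lowered (43.75%) and 3 raised (18.75%). Over all tested genes the shares were 12.0% and 11.7%. Cldn2, the claudin that forms cation pores in leaky proximal epithelium, was at 2.82, 3.21 and 3.82 CPM with vehicle and 1.62, 1.49 and 1.15 CPM with TWEAK. All TWEAK samples were lower (log2 fold change −1.22, SE 0.20, adjusted p = 2.13e-05). Cldn1, a sealing claudin, rose from 444, 412 and 417 CPM to 578, 555 and 569.9 CPM (log2 fold change 0.42, SE 0.035, adjusted p = 3.11e-10), and Cldn4 gained 0.17 ± 0.031 (log2 ± SE). The cadherin Cdh6, known from the developing proximal tubule, fell from 189, 163 and 170.2 CPM to 111, 108 and 108 CPM (log2 fold change −0.68, SE 0.047, adjusted p = 5.95e-12), and Cdh2 and Tjp1, for the scaffold ZO-1, fell with log2 fold changes of −0.33 ± 0.034 and −0.37 ± 0.039. Among the 16 tested genes of the proximal tubule list, 5 fell and 2 rose, or 1 rose in DESeq2 and without TWEAK sample 1 or vehicle sample 1 or 3. The raised share was 12.5%, near the 11.7% of all tested genes, and the lowered share 31.25%, beside 12.0%. Slc6a19, a neutral amino acid transporter, fell from 10.6, 12.6 and 11.9 CPM to 6.63, 7.21 and 7.59 CPM (log2 fold change −0.72, SE 0.098, adjusted p = 1.75e-06), the bicarbonate transporter Slc4a4 from 224 ± 19.7 to 176 ± 4.39 CPM (log2 fold change −0.35, SE 0.046, adjusted p = 9.21e-07) and the endocytic receptor gene Cubn fell at a log2 fold change of −0.57 ± 0.15, while the efflux pump Abcg2 rose from 39.8 ± 0.733 to 65.9 ± 4.37 CPM (log2 fold change 0.73, SE 0.051, adjusted p = 7.25e-12).

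Small decreases were spread over the genes of sterol and fatty acid synthesis. Of 29 tested genes, 20 were lowered (69.0%, beside 12.0% of all tested genes) and none raised, with a median log2 fold change of −0.26 against −0.0034 over all genes. Between 18 and 23 were lowered in the alternative settings. Scd2, a stearoyl-CoA desaturase, was at 698, 642 and 665 CPM with vehicle and 469, 476 and 480.3 CPM with TWEAK. The TWEAK samples were all lower (log2 fold change −0.49, SE 0.032, adjusted p = 1.51e-12). The log2 fold change was −0.55 ± 0.059 (SE) for Elovl6, which elongates fatty acids, −0.50 ± 0.063 for Dhcr7, the last step to cholesterol, and −0.48 ± 0.044 for the sterol enzyme Hsd17b7. The regulators Srebf1 and Srebf2 were not called, at 0.00054 ± 0.045 and −0.029 ± 0.033 (log2 ± SE).

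Of 34 subunits of the respiratory complexes, 1 was lowered (2.94%, beside 12.0% of all tested genes) and none raised. The lowered one was Sdha, at a log2 fold change of −0.095 ± 0.031 (SE). Sdha was not called without the filter, in the 6 samples alone, or without vehicle sample 1 or TWEAK sample 2 or 3, while 2 subunits were lowered without vehicle sample 3 and 1 was raised without vehicle sample 2. Of 40 tested genes of the cell cycle and DNA replication, 3 rose (7.5%) and 4 fell (10%), beside 11.7% and 12.0% of all tested genes, and 2 fell without vehicle sample 1 or in the 6 samples alone. Those that fell included the cyclins Ccnd2 (−0.39 ± 0.031) and Ccne1 (−0.38 ± 0.061), while the proliferation markers Mki67 and Top2a were at −0.087 ± 0.063 and −0.057 ± 0.043 (log2 ± SE) and not called. Klotho (Kl), which TWEAK is known to lower in kidney, had 42 reads over the 6 samples, too few to be tested, and Ppargc1a, the regulator of mitochondrial biogenesis, stood at 0.436 ± 0.119 to 0.299 ± 0.211 CPM and was not called (adjusted p = 0.464). The list on Klotho and mitochondrial biogenesis gave 1 call among 9 tested genes, Pprc1, which was raised (log2 fold change 0.15, SE 0.036, adjusted p = 0.00180). That share, 11.1%, was near the 11.7% of all tested genes that were raised.

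Of 20 genes of tubular injury and repair, 6 were raised (30%) and 5 lowered (25%), beside the same 11.7% and 12.0%. The lowered count was 3 without TWEAK sample 1 or 2 or without vehicle sample 1 or 2. Havcr1, for KIM-1, was at 4.9997, 3.94 and 4.74 CPM with vehicle and 4.39, 4.02 and 4.90 CPM with TWEAK, with overlapping groups (log2 fold change −0.043, SE 0.12, adjusted p = 0.861), and Lcn2, for NGAL, was not called either (log2 fold change 0.16, SE 0.063, adjusted p = 0.0677), although it was without the filter (adjusted p = 8.33e-05) and in the 6 samples alone (adjusted p = 0.00563). Spp1, osteopontin, fell from 637 ± 5.84 to 485 ± 14.9 CPM (log2 fold change −0.39, SE 0.038, adjusted p = 4.31e-09), and Ccn1 rose from 577 ± 10.03 to 795 ± 17.4 CPM (log2 fold change 0.46, SE 0.032, adjusted p = 5.95e-12).

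Beside the islet markers, the lists in which 0 genes were lowered in edgeR were the 4 on NF-κB signaling and those on CC chemokines, TNF ligands, complement, MHC class I, Klotho and mitochondrial biogenesis, the loop, distal tubule and collecting duct, and leukocytes. DESeq2 also lowered 0 genes in each of them, and at an unadjusted p under 0.05 the count stayed at 0 except for 1 TNF ligand gene, Eda. With 12.0% of all tested genes lowered, a count of 0 says little for the short lists. Only 3 genes each were tested for the loop, distal tubule and collecting duct and for leukocytes. The lists on IκB proteins, CC chemokines and TNF ligands held 6 tested genes each, and that on Klotho and mitochondrial biogenesis 9. The sterol list had 0 raised genes by either tool and 0 at an unadjusted p under 0.05, and the respiratory list 0 by either tool and 1 at the unadjusted p. The fibroblast and podocyte lists, with 9 and 6 tested genes, also had 0 raised genes by either tool and at the unadjusted p. Over all tested genes the raised share was 11.7%.

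Of the 15 islet markers, which are foreign to kidney cells, 0 of 9 tested genes were called in edgeR, and 0 passed an unadjusted p under 0.05. Their summed level was 22.6 to 26.8 CPM in vehicle and 22.6 to 43.0 CPM in TWEAK samples, highest in TWEAK sample 1. Between 0 and 1 of them were called under the alternatives, 0 in DESeq2. Their part in the changes above was not tested. In the leukocyte list, Cd14, which epithelial cells also express, was raised from 41.3 ± 1.96 to 69.7 ± 2.82 CPM (log2 fold change 0.75, SE 0.063, adjusted p = 3.20e-10), while Ptprc and the T and B cell markers did not pass the filter.

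**Figure D5:**
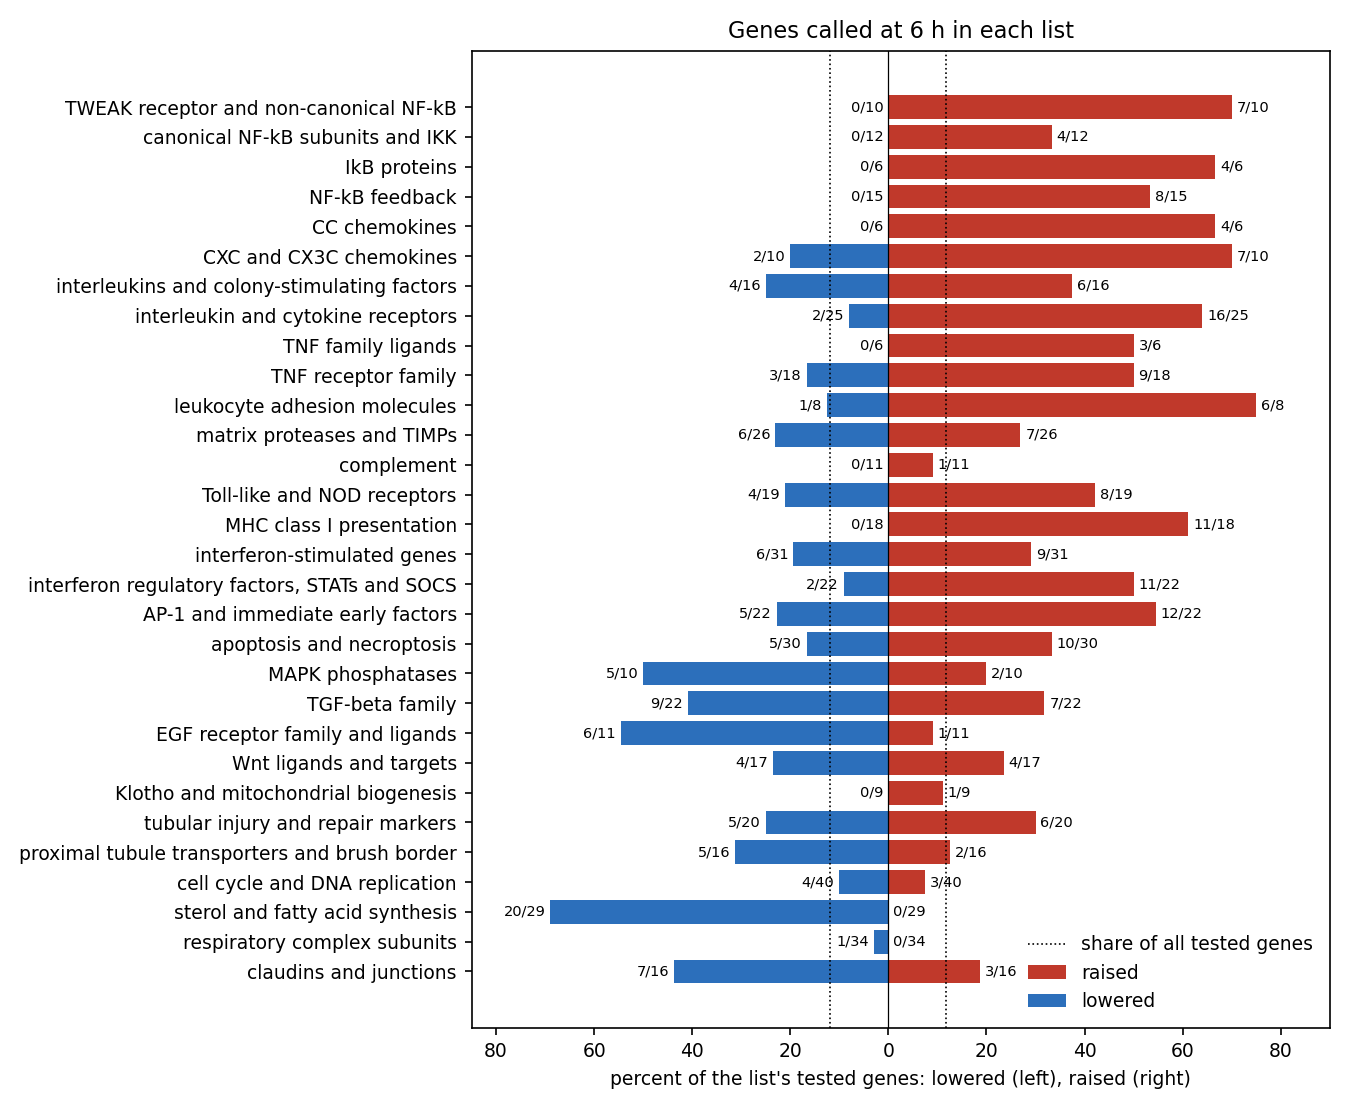
Percent of the tested genes of each list that were lowered (blue, to the left) and raised (red, to the right) at 6 h, with the counts beside each bar and the share of all tested genes as dotted lines (12.0% lowered, 11.7% raised). The lists on NF-κB, chemokines, adhesion and MHC class I have bars mainly to the right, and that on sterol and fatty acid synthesis, with 20 of 29 lowered, only to the left.

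Most inducible genes were also up at 24 h, a comparison that used other vehicle and TWEAK samples. Of the 271 inducible genes, 229 were raised and 203 by more than 2-fold at 24 h, and of the 84 repressed genes 64 were lowered and 51 by more than 2-fold. The share of all tested genes raised or lowered at 24 h was not counted, so no background stands beside these counts. The difference between the TWEAK effects at both times was tested as an interaction, which called 1383 of all tested genes (8.91%), 503 higher (3.24%) and 880 lower (5.67%) at 24 h. Among the inducible genes 45 were higher and 14 lower at 24 h, and among the repressed genes 16 were lower and 1 higher. Thbs1, which rose by less than 2-fold at 6 h, had a rise that was smaller at the later time (log2 fold change 0.43, SE 0.043; interaction −0.40, adjusted p = 4.89e-05). Nfkb2, Vcam1 and Ccl9 did not differ beyond the threshold, with interactions of −0.035 ± 0.052, 0.33 ± 0.12 and 0.31 ± 0.17 (log2, SE).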

How the data were processed

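RNASeq was done on 18 samples of murine RPTEC, of which the 6 vehicle and TWEAK samples at 6 h were compared. The authors ran HTSeqGenie, which aligns with GSNAP, against mouse NCBI build 37, and the deposited counts are uniquely aligned reads in the exons of each gene, not normalized. The deposited RPKM values of the authors, scaled by exonic length and total reads, were used only to set levels of different genes side by side. The library kit (TruSeq RNA v2) does not keep the strand, and labels and methods differ on sequencer and read length. Symbols were assigned by Entrez Gene identifier from RefSeq GRCm38.p6 (31048 of 36528) or GENCODE M21 (77). The other 5403 kept their identifier. No position was converted between builds.

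Counts of all 18 samples were fitted as 6 groups of 3 in edgeR 4.0.16 under R 4.3.3 (TMM normalization, estimateDisp, glmQLFit, glmQLFTest) for the 15521 genes above 10 reads in 4 or more samples, with Benjamini-Hochberg adjustment. SEs were obtained from the F statistic. CPM used TMM effective library sizes. Replicates differed by more than sampling noise in every group. The scripts were tested on simulated counts for this comparison. The text names the 20 genes with the largest rise and the 20 with the largest fall (complete separation of the samples, at least 1 CPM in the higher group), the 10 called genes with the largest gain and the 10 with the largest loss in mean CPM, and members of lists. A few of these genes are not reported here. The members and lists were chosen with earlier results of these data known. Alternatives were DESeq2 1.42.0, its size factors or library sizes alone in edgeR, no filter or filterByExpr, the 6 samples alone, glmTreat against a 2-fold change, and leaving out each sample. Samples with NIK SMI1 entered only the gene filter, the TMM normalization and the estimate of the spread.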

Additional observations from a re-analysis of the deposited data

Results flagged for a closer look

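Of the 40 genes with the largest rises and falls at 6 h, 17 had an effect of TWEAK at 24 h that differed from that at 6 h by edgeR's interaction test, at an adjusted p-value under 0.05, against 8.91% of all tested genes. The contrasts at 6 h and 24 h share no sample, but the interaction uses the same 6 h samples by which the 40 genes were chosen. The 8.91% covers all tested genes and not only strongly changed ones. In the values below, the effect at 24 h minus the effect at 6 h is given on the log2 scale with its SE. All 8 raised genes among them were higher still at 24 h. The largest difference was that of Pglyrp2 at 3.35 ± 0.87, whose vehicle samples held few reads, followed by Rgs4 at 2.09 ± 0.37, Plxnd1 at 1.58 ± 0.092 and Traf1 at 1.31 ± 0.22. Smaller differences were found for Icam1 (0.81 ± 0.26), Fyb (0.72 ± 0.21), Il23a (0.50 ± 0.12) and Nfkbia (0.21 ± 0.064). Icam1 was closest to the threshold (adjusted p = 0.0487).

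The 9 lowered genes were all lower at 24 h than at 6 h. Igfbp5 differed by −1.77 ± 0.065, Cldn2 by −1.70 ± 0.31 and Pdzrn3 by −1.41 ± 0.34. The differences were −0.92 ± 0.081 for Gcnt1, −0.71 ± 0.22 for St8sia1, −0.61 ± 0.10 for Id2, −0.59 ± 0.11 for Ivl, −0.36 ± 0.10 for Dclk3 and −0.33 ± 0.092 for Thbd. At 24 h the log2 fold change of Igfbp5 was −3.08 and that of Cldn2 −2.92.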

How the results depend on the processing

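The counts of raised, lowered, inducible and repressed genes stayed within 1.5 times their values under DESeq2, its size factors, library sizes alone, both other filters and the 6 samples alone (1668 to 1895 raised, 1570 to 2083 lowered, 257 to 297 inducible and 70 to 89 repressed genes). The exception was glmTreat, which tests each change against 2-fold and called 105 inducible and 8 repressed genes. Leaving out single samples gave 1574 to 1691 raised, 1552 to 1748 lowered, 251 to 283 inducible and 73 to 93 repressed genes, and 343 to 519 genes with a higher and 708 to 1031 with a lower effect at 24 h (522 and 878 in DESeq2). The 1031 came without vehicle sample 1 at 6 h. Other scalings moved the median of all genes by at most 0.013 (log2).

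Single genes were followed through the settings for 6 h other than glmTreat, in each setting that tested them. Of 315 called genes followed in this way, 53 lost the call in at least 1 setting and 0 changed direction. Of 5 genes followed that were not called, 3 changed sign near 0 when single samples were left out, and Lcn2 kept its sign and was called in 2 settings. The log2 fold change of Havcr1 ranged from −0.13 to 0.031, above 0 without TWEAK sample 2 and, at 0.016, without vehicle sample 1. That of Tnfrsf12a ranged from −0.059 to 0.0042, above 0 without TWEAK sample 1, and that of Tnfsf12 from −0.10 to 0.074, above 0 without TWEAK sample 1 and, at 0.0097, without vehicle sample 3. Depth limits the weakly expressed genes, since 152 of the 271 inducible genes were under 1 CPM in vehicle. No paired analysis was possible because the labels carry no replicate numbers.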

Other observations

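Single markers of other nephron segments and cell types also responded at 6 h. Gata3, a transcription factor of the collecting duct, rose from 0.503, 0.516 and 0.409 CPM to 1.80, 2.25 and 2.03 CPM (log2 fold change 2.11, SE 0.23, adjusted p = 2.65e-08), and of the 3 loop, distal and collecting duct markers tested it was the one called. Of 6 endothelial markers tested 1 was raised and 2 were lowered: the VEGF receptor gene Flt1 rose from 31.2 ± 1.35 to 46.2 ± 0.588 CPM (log2 fold change 0.57, SE 0.046, adjusted p = 1.21e-10), while the phosphatase gene Ptprb fell from 51.9 ± 7.76 to 29.8 ± 1.76 CPM (log2 fold change −0.79, SE 0.077, adjusted p = 4.79e-09) and Sox17 fell from 0.437 ± 0.124 to 0.173 ± 0.0797 CPM (log2 fold change −1.35, SE 0.46, adjusted p = 0.0326), with 1 lowered without TWEAK sample 1 or 2 or vehicle sample 2 or 3. The raised share of the endothelial list was 16.7% and the lowered share 33.3%, beside 11.7% and 12.0% of all tested genes. Without Flt1 and Ptprb, the endothelial markers summed to 5.23 to 5.68 CPM in vehicle and 4.30 to 5.29 CPM in TWEAK samples. Podocyte markers were lowered in 2 of 6 tested genes, the actin-binding Synpo from 58.2, 57.6 and 59.4 CPM to 34.6, 37.3 and 32.99 CPM (log2 fold change −0.74, SE 0.048, adjusted p = 1.84e-12) and Podxl from 396 ± 6.78 to 349 ± 4.63 CPM (log2 fold change −0.18, SE 0.030, adjusted p = 2.69e-05), and 4 of the 10 listed, among them the defining Nphs1, did not pass the filter. Of 9 fibroblast markers 1 was lowered, Col1a1 (log2 fold change −0.34, SE 0.098, adjusted p = 0.0109), and 2 without vehicle sample 2. The lowered share of the podocyte list was 33.3% and that of the fibroblast list 11.1%, the latter near the 12.0% of all tested genes.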
